A study of Ambystoma mexicanum with 6 samples.

Results

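Midkine and 4 proteins known to act as its signalling receptors were followed in regenerating forelimbs of the axolotl, Ambystoma mexicanum, at 11 days post-amputation (dpa). The genes were picked by name from the study's tables, with earlier results of these data known. They are midkine (assembled gene c1057474_g1), ptprz (c1083357_g2), lrp1 (c1084889_g2), notch2 (c1091395_g2) and nucleolin (c1070741_g1). Together they hold 23 of the 1554055 assembled transcripts, and 5 of the 1388798 assembled genes. Of these 23 transcripts, midkine has 2, ptprz 6, lrp1 1, notch2 4 and nucleolin 10. The study's tables name only some of these transcripts, and the others were included because they belong to the same assembled gene.

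The animals were juvenile white axolotls whose forelimbs were amputated through the radius and ulna. From amputation until collection they were bathed either in iMDK, a small-molecule inhibitor of midkine, or in DMSO, the solvent alone. Each group has 3 libraries, DMSO 1 to 3 and iMDK 1 to 3, which the study describes as biological triplicates. The study lists its white strain as d/d, and no midkine mutant or transgene was involved. No untreated limb was sequenced. The tissue was whole regenerating limb, so fewer cells of a type and less RNA per cell cannot be told apart.

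Midkine is a secreted, heparin-binding growth factor that is abundant in embryos and returns in injured tissue. It is held at the cell surface by proteoglycans and signals through several receptors. Ptprz is a receptor-type tyrosine phosphatase that carries chondroitin sulphate chains, lrp1 is a large endocytic receptor, and notch2 is a receptor of the Notch pathway. Nucleolin is an abundant nucleolar protein of ribosome production that in mammalian cells also appears at the cell surface, where it binds midkine and carries it to the nucleus.

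Values are TPM, a share of a library's reads corrected for transcript length, that the authors scaled between libraries with TMM factors, called scaled TPM here. TPM keeps no read totals, so the sequencing depth is unknown and no counting interval can be given. The number of transcripts above 0 ranged from 126965 to 198094 per library. Of summed marker levels, erythrocyte markers (6 transcripts) were at 3.51 to 7.50 scaled TPM in DMSO and 22.8 to 41.5 in iMDK, without overlap, and 1 of their 4 tested transcripts was called. Over all tested transcripts 0.541% were called and 17% had groups that did not overlap. Epidermal markers (13 transcripts) ranged from 5999 to 9118 and from 8321 to 9897, and those of macrophages and osteoclasts (15 transcripts) from 3307 to 4331 and from 3542 to 5241. The endothelial pair was at 5.38 to 15.97 over all libraries, and the single muscle marker, MYH3, was at 0 in 4 of 6 libraries. The marker lists hold only names found in the study's tables, and their part in the results on midkine and its receptors was not tested.

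The 5 genes were expressed at very different levels, and the order was the same in every library. Nucleolin had the highest gene sum (all transcripts of the assembled gene added), at 323 to 527 scaled TPM, above 99.4% of all tested sums by its mean of 414. Midkine followed at 56.3 to 175, above 97.3% of sums, and ptprz at 21.2 to 28.5, above 89.9%. Notch2 lay at 6.55 to 13.3, above 77.3% of sums, and lrp1 at 0.467 to 1.39, above 11.7%. Neighbours in this order did not overlap over the 6 limbs. TPM corrects for transcript length, so these levels can be set side by side, but an assembled gene may hold only a piece of a long messenger RNA such as that of lrp1.

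**Figure D1:**
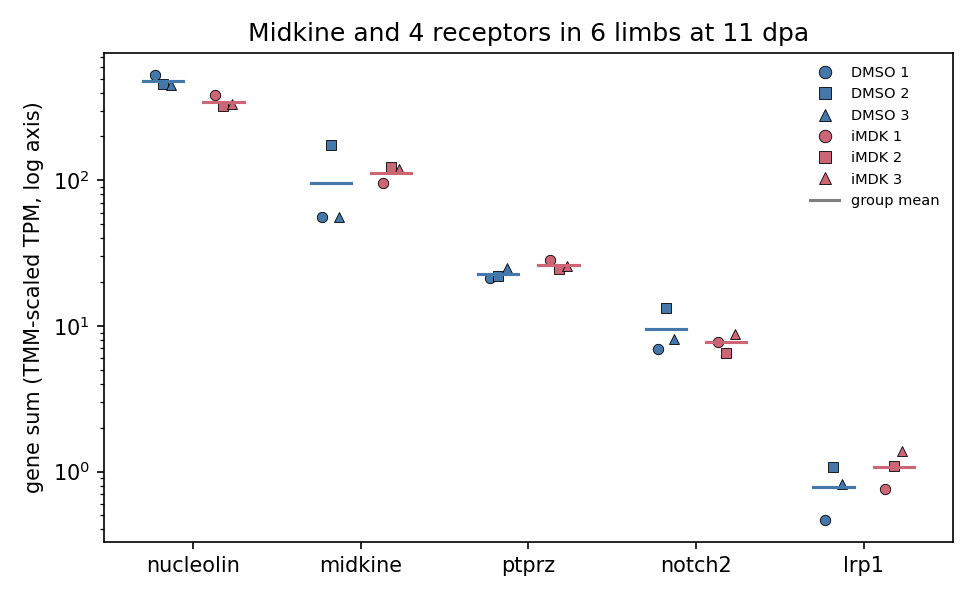
Gene sums of nucleolin, midkine, ptprz, notch2 and lrp1 in scaled TPM on a log axis. Points are single limbs, blue for DMSO and red for iMDK, with the marker shape giving the replicate, and bars are group means. DMSO 2 lies apart for midkine (175) and notch2 (13.3), and for nucleolin all 3 iMDK limbs (323 to 385) lie below the DMSO limbs (455 to 527).

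The midkine transcript level did not differ detectably between treatments, and the DMSO limbs differed among themselves by more than the groups did. The midkine sum was 56.3, 175 and 56.3 scaled TPM in DMSO 1, 2 and 3. It was 96.0, 124 and 119 in iMDK 1, 2 and 3. The iMDK limbs lay close together, and the DMSO limbs stood on either side of them. The means were 95.8 ± 68.4 in DMSO and 113 ± 14.9 in iMDK (SD, n = 3). The difference on the log2(value + 0.5) scale was 0.45 with a standard error of 0.44 and a 95% interval from -0.61 to 1.505 (limma, adjusted p = 0.830). This interval leaves room for a lower as well as a higher level in iMDK. Here and below, limma p-values measure only the spread between these limbs, with variances moderated over all tested transcripts or sums.

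The size of this difference turned on DMSO 2. Without it the midkine difference was 0.99 (limma adjusted p = 0.265), against 0.18 without DMSO 1 or without DMSO 3. Over the 3 DMSO limbs the log2 SD of midkine was 0.939, and 68.3% of tested gene sums varied less. In iMDK it was 0.197, with 21.5% of sums varying less. DMSO 2 stood apart in other genes too. There 11.7% of tested sums were more than 2 times as high as in each other DMSO limb. This share was 5.82% for DMSO 1 and 7.72% for DMSO 3. For an iMDK limb against the other iMDK limbs it was 5.63% to 8.30%. DMSO 2 also had the most transcripts above 0 (198094), and the part of this in its values was not tested. Summed connective tissue markers (13 transcripts, 1 of them at 0 in every library, among them collagens, fibronectin, fibrillin and tenascin) were at 180, 437 and 202 in DMSO and 264, 366 and 300 in iMDK. They were thus high and low in the same limbs as midkine, and their part in the midkine values was not tested.

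**Figure D2:**
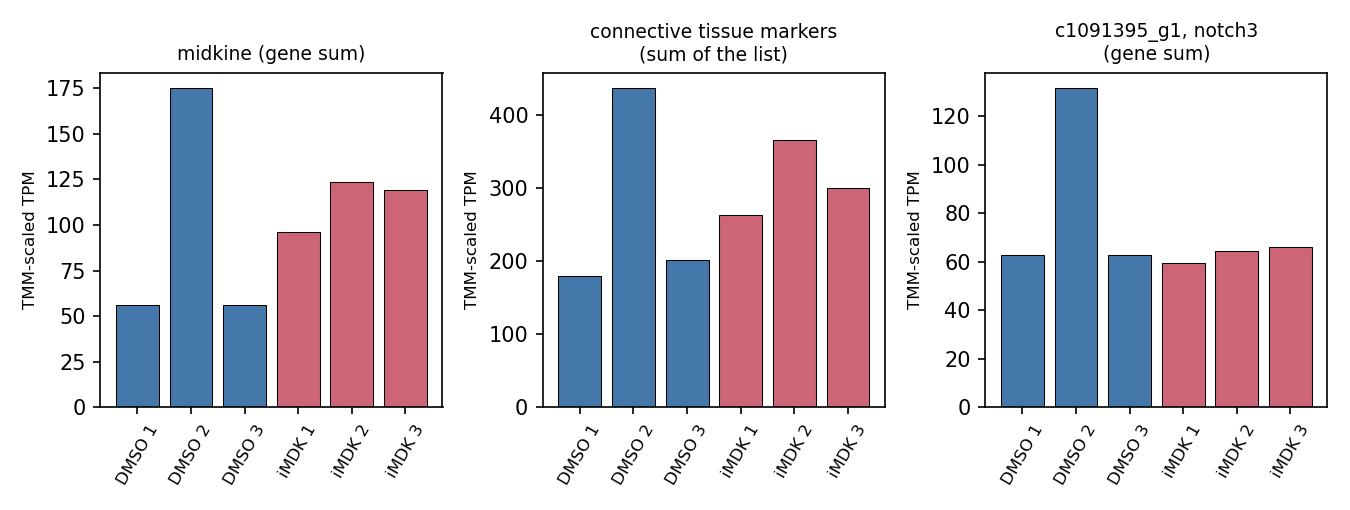
Bars give the midkine gene sum, the summed connective tissue markers and the sum of the notch3-named gene c1091395_g1 in each limb, in scaled TPM from 0, blue for DMSO and red for iMDK. DMSO 2 has the highest bar in each panel (175, 437 and 131).

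Almost all midkine signal came from a single transcript, c1057474_g1_i2. It was at 56.3, 175 and 49.1 in DMSO and at 96.0, 124 and 117 in iMDK, a difference of 0.50 with an interval from -0.63 to 1.64 (limma adjusted p = 0.805). The other transcript, c1057474_g1_i1, was listed at 0 in 4 limbs, at 7.18 in DMSO 3 and at 2.20 in iMDK 3, where it made up 12.8% and 1.84% of the sum. It failed the filter for testing, which asked for at least 1 scaled TPM in at least 3 of 6 limbs. A 0 need not mean that the transcript was missing, since reads of near-identical transcripts are divided among them by estimate.

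The assembly placed another gene beside midkine in the same component, c1057474_g2, which carries no name here. Its level was 2.46, 4.25 and 1.60 in DMSO and 0.282, 0.082 and 0.149 in iMDK. All iMDK limbs were lower, with a difference of -2.21 and a standard error of 0.48 on the log2 scale, but it missed the threshold over all gene sums (limma adjusted p = 0.188). This gene passed the filter through the DMSO limbs alone, so its being tested already favoured a lower level in iMDK. Of all tested sums 8.23% were lower in iMDK without overlap. The level of c1057474_g2 was a small part of that of midkine, and adding it to midkine gave no call.

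Of the receptors, ptprz showed a change in the shares of its transcripts, by a test that made more false calls than its nominal rate on simulated data, and its summed level did not differ detectably. Transcript i3 made up 13.2% ± 1.85 of the ptprz sum in DMSO limbs and 2.11% ± 0.90 in iMDK limbs (SD, n = 3). Transcript i4, the most abundant, made up 31.4% ± 4.69 and 39.9% ± 3.52. The make-up of ptprz passed the test, as did that of 5.72% of 7599 tested assembled genes. Those of notch2 and nucleolin, the other testable members, did not when all limbs were used. The ptprz call rested on i3, which passed the filter for testing through the DMSO limbs alone. In the iMDK limbs i3 was at only 0.304 to 0.727 scaled TPM. Summed erythrocyte markers also separated the groups (3.51 to 7.50 against 22.8 to 41.5), where 17% of all tested transcripts did. The part of erythrocyte markers in the ptprz and nucleolin values was not tested.

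The ptprz sum was 21.2, 22.1 and 25.2 scaled TPM in DMSO and 28.5, 24.5 and 25.96 in iMDK. DMSO 3 overlapped the iMDK limbs. The difference was 0.20 with an interval from -0.15 to 0.56 (limma adjusted p = 0.758). The limbs of each group lay close together, and a 2-fold change in either direction falls outside this interval.

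Transcript c1083357_g2_i3 was at 2.67, 2.58 and 3.83 scaled TPM in DMSO and at 0.631, 0.727 and 0.304 in iMDK. Every iMDK limb was below every DMSO limb, as for 8.41% of all tested transcripts, and the gap was wide. Transcript i3 passed the filter through the DMSO limbs alone, so its being tested already favoured a lower level in iMDK. Its difference of -1.75 had a standard error of 0.39 and an interval from -2.68 to -0.81, and missed the threshold over all transcripts (limma adjusted p = 0.139). At this low level the added 0.5 makes the difference smaller than it is on the original scale.

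Transcript c1083357_g2_i4 was at 6.90, 7.85 and 6.62 in DMSO and at 11.9, 8.78 and 10.9 in iMDK. The groups did not overlap, and the iMDK limbs were the higher ones, as for 8.59% of all tested transcripts. The difference was 0.53 with an interval from 0.023 to 1.03 (limma adjusted p = 0.420). The remaining transcripts overlapped between groups. Transcript i1 was at 4.76, 3.24 and 3.13 in DMSO and at 5.24, 4.08 and 4.98 in iMDK. Transcript i2 was at 3.97, 2.52 and 5.96 and at 4.95, 7.14 and 6.24, and i5 at 2.37, 5.92 and 5.13 and at 5.08, 3.82 and 3.51. Transcript i6 stayed under 1 in every limb and was not tested.

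**Figure D3:**
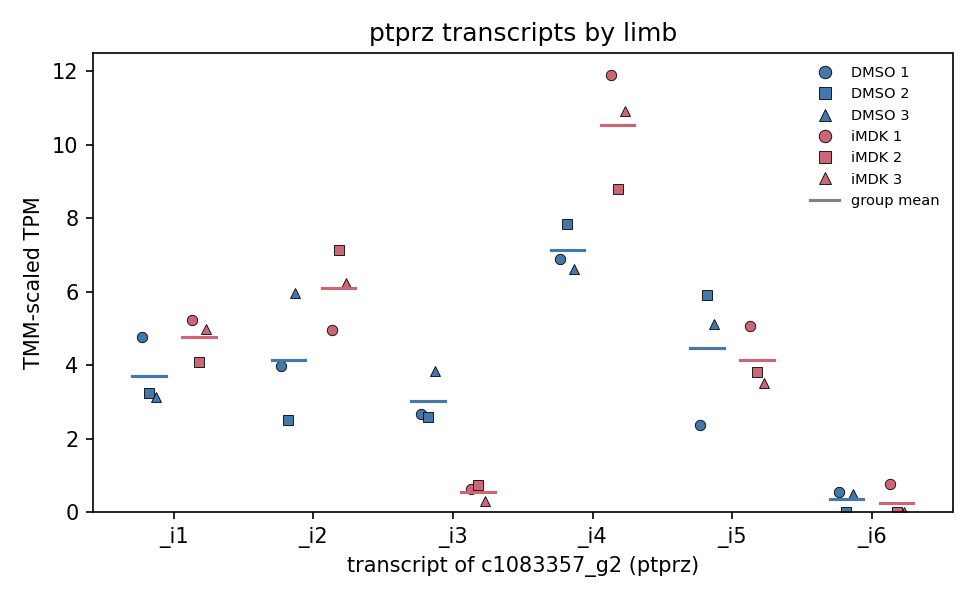
Scaled TPM of the 6 ptprz transcripts, i1 to i6, in each limb, blue for DMSO and red for iMDK, with group means as bars. Transcript i3 separates the groups downward (2.58 to 3.83 against 0.304 to 0.727) and i4 upward (6.62 to 7.85 against 8.78 to 11.9), and the other transcripts overlap.

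As a share of the ptprz sum in the same limb, which does not depend on the scaling between libraries, i3 was 12.6%, 11.7% and 15.2% in DMSO and 2.21%, 2.96% and 1.17% in iMDK. The shares did not overlap (2-sided exact permutation p = 0.1, the smallest that 3 limbs against 3 allow). The share of i4 was 32.5%, 35.5% and 26.3% in DMSO and 41.7%, 35.8% and 42.1% in iMDK, nearly touching between DMSO 2 and iMDK 2. In limma's diffSplice test, which sets each transcript against the others of its gene, the make-up of ptprz was called (adjusted p = 0.000679 over 7599 assembled genes), as was that of 5.72% of those genes. The log2 difference of i3 relative to the other ptprz transcripts was -2.10 (diffSplice adjusted p = 0.000292). Those of i4 (0.75, adjusted p = 0.337) and i2 (0.79, adjusted p = 0.288) were not called. The call of ptprz thus rested on i3, which passed the filter through the DMSO limbs alone.

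The diffSplice test treats the transcripts of a gene as separate measurements, although reads given to one are taken from another. A limma fit on the ratio of each transcript to the rest of its gene was added after the values were seen. It rests on the spread between limbs. For i3 it gave -2.12 with a standard error of 0.36 and passed narrowly (limma adjusted p = 0.0477), with a call in 3.63% of genes. This fit used the same values of i3, which passed the filter through the DMSO limbs alone, so it is not separate support. Under a filter of at least 5 scaled TPM, i3 was no longer tested and the make-up of ptprz was not called (diffSplice adjusted p = 0.755).

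**Figure D4:**
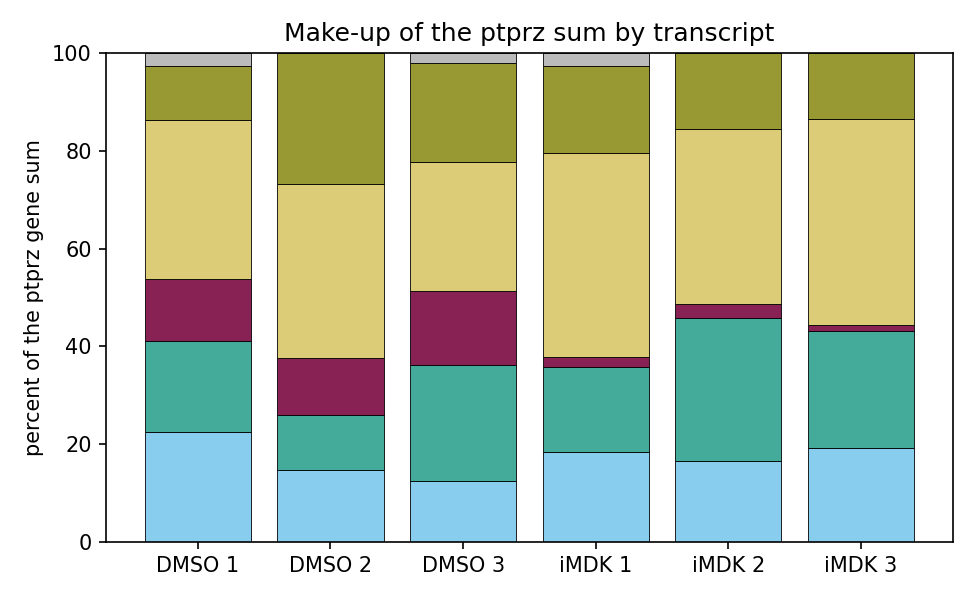
Stacked bars give the percent of the ptprz sum held by each transcript, i1 at the bottom to i6 at the top, in each limb. The dark band of i3 spans 11.7% to 15.2% in the DMSO limbs and 1.17% to 2.96% in the iMDK limbs.

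Lrp1 was the lowest of the receptors, near the limit of the filter, and its groups overlapped. Its only transcript was at 0.467, 1.08 and 0.820 scaled TPM in DMSO and at 0.757, 1.09 and 1.39 in iMDK. The means were 0.788 ± 0.306 and 1.08 ± 0.318 (SD, n = 3). The difference was 0.30 with an interval from -0.77 to 1.38 (limma adjusted p = 0.851 as a gene sum). A second gene of that component, c1084889_g3, also carries the name lrp1 in the study's tables and was at 0.782, 1.93 and 1.15 in DMSO and at 1.12, 1.61 and 1.92 in iMDK. These 2 pieces were each lowest in DMSO 1, and their groups overlapped. The unnamed c1084889_g1 of the same component was at 1.77, 3.99 and 2.88 and at 2.62, 3.88 and 5.82, likewise overlapping.

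The notch2 sum was 6.99, 13.3 and 8.15 scaled TPM in DMSO and 7.70, 6.55 and 8.85 in iMDK. DMSO 2 was the highest limb and the others lay together. The difference was -0.24 with an interval from -0.91 to 0.42 (limma adjusted p = 0.835), and without DMSO 2 it was 0.017.

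Its 2 tested transcripts had differences of opposite sign. Transcript c1091395_g2_i1 was at 3.93, 2.70 and 1.31 in DMSO and at 4.13, 2.82 and 4.76 in iMDK (difference 0.55, limma adjusted p = 0.748). Transcript c1091395_g2_i2 was at 3.06, 10.6 and 6.84 in DMSO and at 3.57, 3.73 and 4.09 in iMDK (difference -0.63, limma adjusted p = 0.712). Both overlapped between groups. The share of i2 was 43.8%, 79.8% and 83.9% in DMSO and 46.4%, 57.0% and 46.2% in iMDK, with DMSO 1 among the iMDK values, and the make-up was not called (diffSplice adjusted p = 0.489). The other 2 transcripts were listed at 0 in every limb. The neighbouring gene c1091395_g1, of which the study's tables name transcript i1 after notch3, was far higher, at 62.9, 131 and 62.8 in DMSO and 59.6, 64.2 and 65.8 in iMDK (limma adjusted p = 0.812). It too was highest in DMSO 2, and reads of the notch2 and notch3 genes could be shared between them.

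Nucleolin was lower in every iMDK limb than in any DMSO limb, but the difference missed the threshold. Its sum was 527, 461 and 455 scaled TPM in DMSO and 385, 323 and 335 in iMDK. The means were 481 ± 39.8 and 347 ± 32.9 (SD, n = 3), and the gap between the groups lay between iMDK 1 and DMSO 3. The difference was -0.47 with a standard error of 0.17 and an interval from -0.86 to -0.075 (limma adjusted p = 0.373). Its unadjusted p was under 0.05, as for 10.7% of all gene sums, and 8.23% of all sums were lower in iMDK with no overlap.

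Transcript c1070741_g1_i5 held 84.5% to 93.8% of the nucleolin sum. It was at 445, 408 and 390 in DMSO and at 361, 280 and 290 in iMDK, without overlap (difference -0.42, limma adjusted p = 0.436). Being most of the sum, i5 is not a separate observation. Transcript c1070741_g1_i3 was at 48.4, 47.0 and 44.8 in DMSO and at 16.5, 34.9 and 40.6 in iMDK. All iMDK limbs were lower, iMDK 1 by the most and iMDK 3 by little (difference -0.70, limma adjusted p = 0.521). Groups lower in iMDK without overlap were found for 8.41% of all tested transcripts.

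Transcript c1070741_g1_i2 varied widely within each group. It was at 24.7, 0.016 and 12.8 in DMSO and at 1.35, 0.001 and 0.112 in iMDK (difference -2.75 with a standard error of 1.46, limma adjusted p = 0.576). DMSO 2 lay among the iMDK limbs. The make-up of nucleolin was not called with all limbs (diffSplice adjusted p = 0.304), but it was called without DMSO 2 (adjusted p = 0.000169), the DMSO limb with i2 near 0. That fit called 395 assembled genes in all, beside 435 (5.72% of those tested) with all limbs. Leaving out any other limb gave a diffSplice adjusted p for nucleolin of 0.297 to 0.877.

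The minor nucleolin transcripts overlapped between groups. Transcript i1 was at 4.17, 3.83 and 4.71 in DMSO and at 2.83, 3.99 and 1.44 in iMDK, and i4 at 3.21, 1.24 and 1.04 and at 1.97, 2.90 and 1.41. Transcript i7 was at 0.642 to 1.11 over all limbs. Transcripts i8 and i10 stayed at or under 0.805 and were not tested, and i6 and i9 were listed at 0 throughout. The neighbouring genes of that component, c1070741_g2 and c1070741_g3, carry no name here and were at 1.12 to 6.19 and at 0 to 5.45 scaled TPM over all limbs, far below nucleolin and with overlapping groups.

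Over all members, 15 of the 23 transcripts and all 5 gene sums passed the filter. Of the other 8, 4 were above 0 in some limb and 4 were listed at 0. None of the 15 was called at a limma adjusted p under 0.05 and a fold above 2, against 0.541% of all 51718 tested transcripts, and none of the 5 sums against 0.0541% of 44342. At an unadjusted limma p under 0.05 there were 3 transcripts (ptprz i3 and i4, nucleolin i5), where 11.2% of all tested transcripts reached it. Of these, ptprz i3 passed the filter through the DMSO limbs alone. Groups did not overlap for 4 transcripts, against 17% of all, with 1 higher in iMDK (8.59% of all) and 3 lower (8.41% of all). Of the 15 differences 7 were above 0, against 48.9% of all, and their median was -0.03 beside -0.02 over all tested transcripts. Of the 5 gene sums 3 were above 0, against 49.3% of all sums. Only the nucleolin sum had an unadjusted limma p under 0.05 and groups that did not overlap, against 16.6% of all sums without overlap, and no member sum was higher without overlap (8.38% of all). With so few members, these shares do not separate them from the background of all transcripts.

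**Figure D5:**
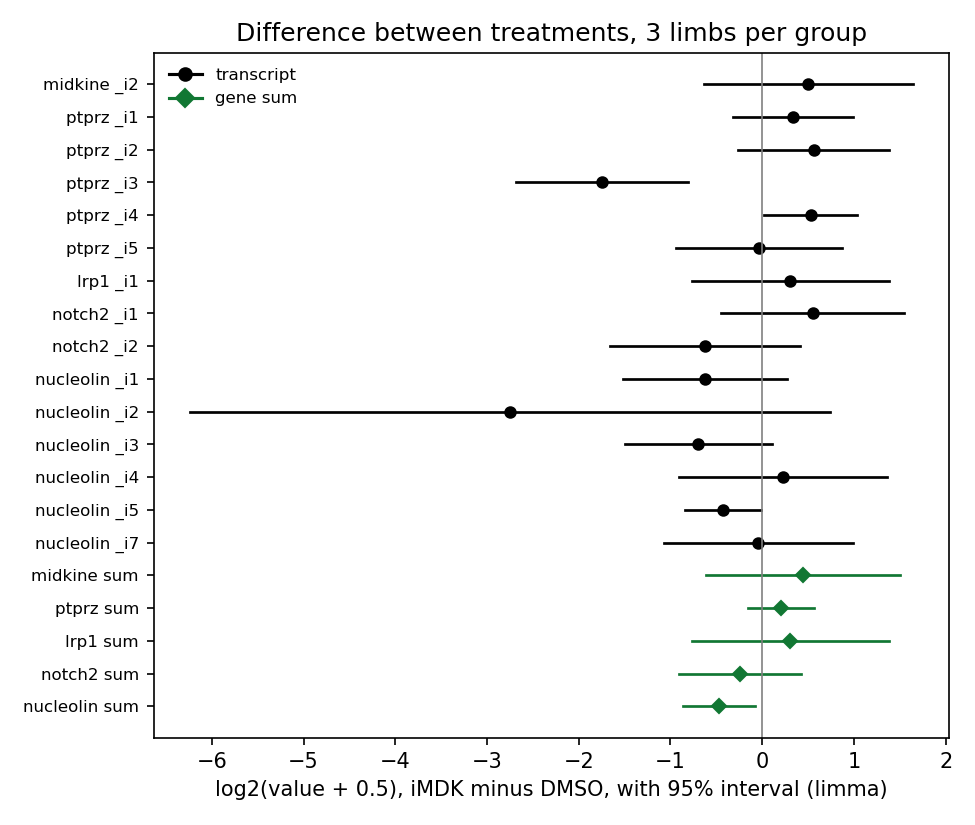
Difference of log2(value + 0.5), iMDK minus DMSO, for the 15 tested transcripts (black circles) and 5 gene sums (green diamonds), with 95% limma intervals from 3 limbs per group. The intervals of ptprz i3 (-2.68 to -0.81), ptprz i4 (0.023 to 1.03), nucleolin i5 and the nucleolin sum (-0.86 to -0.075) leave out 0 before adjustment, and the widest is that of nucleolin i2.

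The amount of ligand transcript per receptor transcript was compared as a ratio within each limb. Midkine over ptprz was 2.65, 7.91 and 2.24 in DMSO and 3.36, 5.04 and 4.60 in iMDK. Midkine over notch2 was 8.06, 13.1 and 6.90 in DMSO and 12.5, 18.9 and 13.5 in iMDK. Midkine over nucleolin was 0.107, 0.379 and 0.124 in DMSO and 0.249, 0.384 and 0.356 in iMDK. In these 3 ratios DMSO 1 and DMSO 3 lay below every iMDK limb and DMSO 2 did not. Midkine over lrp1 overlapped more widely, at 68.6 to 162 in DMSO and 85.6 to 127 in iMDK. The lrp1 value here was that of c1084889_g2 alone. The other piece named lrp1, c1084889_g3, was left out, so the size of this ratio depends on the piece used. In 2-sided exact permutation tests the smallest p of the 4 ratios was 0.2, for notch2, where 3 limbs against 3 allow no less than 0.1, and the values adjusted over the 4 were 0.6 or 0.9.

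Other genes around the pathway were taken from lists of transcripts that the study's tables name, so each list holds only part of its pathway. None of their tested transcripts was called. Of 13 transcripts of other midkine-binding proteins (syndecans, integrins, versican and the second lrp1 piece), 9 were tested, 8 had a difference above 0 and 1 below, 3 had an unadjusted limma p under 0.05, and the median was 0.39. Over all tested transcripts 48.9% were above 0, 11.2% had such a p and the median was -0.02. Marker lists leaned the same way, with 8 of 9 connective tissue transcripts, 10 of 12 epidermal ones and 9 of 10 of macrophages and osteoclasts above 0 (medians 0.41, 0.52 and 0.38), and their part in the values of the binding proteins was not tested. Sdc4, a heparan sulphate proteoglycan of the cell surface, was at 4.30, 3.41 and 5.35 in DMSO and at 19.7, 10.2 and 9.97 in iMDK, all higher (limma adjusted p = 0.146). Sdc1, the syndecan of epithelia, was at 68.9, 88.5 and 71.4 in DMSO and at 100, 97.7 and 117 in iMDK, also without overlap (limma adjusted p = 0.368). Sdc4 and sdc1 were named for the smallest p of the list, and 8.59% of all tested transcripts were higher in iMDK without overlap. Epidermal markers were at most 9118 in DMSO and at least 8321 in iMDK, and their part in the syndecan values was not tested.

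Of 7 transcripts for the nucleolus and ribosome biogenesis, 5 were tested, all had a difference below 0, 2 had an unadjusted limma p under 0.05, and the median was -0.33, beside the 48.9% above 0 and 11.2% with such a p over all tested transcripts. The list is small and was chosen with earlier results of these data known. NOC2L, named after a nucleolar protein, had a transcript at 15.2, 17.9 and 16.5 in DMSO and at 10.7, 9.48 and 10.9 in iMDK. The groups did not overlap (limma adjusted p = 0.204). Of all tested transcripts 8.41% were lower in iMDK with no overlap. The NOC2L gene sum differed less, at 19.5 ± 2.43 in DMSO and 14.9 ± 0.24 in iMDK (SD, n = 3, limma adjusted p = 0.479). ETUD1, named after a ribosome assembly GTPase, had a transcript at 1.80, 7.53 and 4.83 in DMSO and listed at 0 in every iMDK limb (limma adjusted p = 0.0948). This transcript passed the filter through the DMSO limbs alone, so its being tested already favoured a lower level in iMDK. It is among the 2 of the list with an unadjusted limma p under 0.05. The ETUD1 gene sum differed less, at 15.8 ± 0.61 in DMSO and 11.4 ± 0.47 in iMDK (SD, n = 3, limma adjusted p = 0.341).

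The remaining lists lay on both sides of 0. Of 13 transcripts for proteoglycans and the enzymes of their sugar chains, 11 were tested, 6 above and 5 below 0, and their median was 0.10. Of the 11, 1 had an unadjusted limma p under 0.05 (9.09%, beside 11.2% of all tested transcripts). It was of the chondroitin sulphate synthase CHSS3, at 4.20, 2.37 and 2.44 in DMSO and 5.66, 5.775 and 4.29 in iMDK (limma adjusted p = 0.442). It was higher in iMDK without overlap, as were 8.59% of all tested transcripts. A transcript of DSEL, which modifies dermatan sulphate, had a difference below 0 (limma adjusted p = 0.479). Of 9 for PI3K and adaptor signalling 6 were tested, 2 above and 4 below 0 (median -0.17). The smallest by limma were transcripts of SHC1 (adaptor, adjusted p = 0.646) and P85B (PI3K subunit, 0.853), both below 0. The SHC1 gene sum differed by only 0.027. Of 4 Notch pathway transcripts 3 were tested, 1 above and 2 below 0 (median -0.22), with MIB1, which drives uptake of Notch ligands, and a notch3 transcript both at a limma adjusted p of 0.840. Of 4 tyrosine phosphatase transcripts 2 were tested, that of PTN22 above 0 (adjusted p = 0.798) and that of PTPRE below (0.935, limma). The PTPRE gene sum had a difference of 0.081.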

How the data were processed

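RNA of 3 DMSO and 3 iMDK limbs was sequenced with Nextera XT libraries. The authors trimmed reads with Trimmomatic, quantified them with kallisto against a Trinity axolotl assembly and ran DESeq2 for their own tests (versions not given in the sources used here). Deposited values are a signal, TPM per transcript times a TMM factor per library. These are not counts, so log2(value + 0.5) was tested with limma 3.58.1 (trended empirical Bayes, 2-sided) in R 4.3.3 with data.table (version 1.17.8), for transcripts or gene sums of at least 1 in at least 3 of 6 libraries, with Benjamini-Hochberg adjustment over all tested. Calls needed an adjusted p under 0.05 and a fold above 2. Isoform make-up was tested with diffSplice (Simes p per gene, 2 or more tested transcripts). Scripts were tested on simulated data, where diffSplice made more false calls than its nominal rate. The simulated noise was drawn separately for each transcript, so it left out the sharing of reads among transcripts of a gene. Python 3.11.15 with pandas 2.3.3 and matplotlib 3.10.9 drew the figures.

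All transcripts of the 5 genes were described. From each list the 2 members with the smallest p were named, and for each gene sum the 3 named genes of highest Pearson r (1 of them is not reported here). The members and lists were chosen with earlier results of these data known. None of the assembly identifiers matched RefSeq genes, so no coordinates or sequences are given. The study stated no replicate block and same-numbered limbs did not deviate together, so the main fits had none. Neither point settles whether the limbs were paired. With the block 30 transcripts and 0 gene sums were called, beside 280 and 24 in the main fits. Alternatives were another pseudocount, filter, scaling or variance trend, the replicate block and leaving out each limb.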

Additional observations from a re-analysis of the deposited data

How the results depend on the processing

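No transcript or gene sum of the 5 genes was called by limma under any alternative run. The ptprz make-up was called (diffSplice adjusted p of at most 0.0234) except with a filter of at least 5 scaled TPM. There ptprz i3 dropped out of the test, notch2 could no longer be tested and no member was called. In the main analysis 1 member was called, ptprz, beside 5.72% of all tested genes. Midkine and lrp1, with 1 tested transcript each, could not be tested for make-up. In the main analysis ptprz i3 passed the filter through the DMSO limbs alone. Leaving out each limb gave 1 to 2 called members, the second being nucleolin without DMSO 2, beside 373 to 403 called genes in all. The ETUD1 transcript passed with no filter (limma adjusted p = 0.0397) and with no variance trend (0.0316). It was listed at 0 in every iMDK limb and passed the main filter through the DMSO limbs alone. The ETUD1 gene sum was not called in the main analysis (limma adjusted p = 0.341). Over all transcripts the 280 calls became 427 with no filter, 168 with the filter of 5, 1303 with no trend, and 78 to 138 without a limb. The 24 called gene sums became 438, 38, 820 and 0 to 3 in the same order, 9 with a pseudocount of 0.1 and 14 with the TMM scaling undone. The lowest, 0 sums without iMDK 1, stood beside 4454 at an unadjusted p under 0.05. The 435 genes with a changed make-up became 141 with the filter of 5. The cause of these shifts was not tested.

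Some differences that were not called changed sign when a limb was left out. On the log2 scale they ranged from -0.18 to 0.081 for nucleolin i7, -0.013 to 0.62 for nucleolin i4, -0.39 to 0.19 for ptprz i5, -0.43 to 0.017 for the notch2 sum, -0.52 to 0.0075 for c1091395_g1, -0.71 to 0.18 for c1070741_g2, -0.48 to 1.38 for c1070741_g3, -0.51 to 0.013 for P85B, -0.36 to 0.32 for PTPRE and -0.43 to 0.12 for NOTC3. The log2 ratio of midkine to ptprz ranged from -0.10 to 0.81, and that to lrp1 from -0.38 to 0.24.

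Limbs with the same replicate number did not deviate together (correlations 0.0622, 0.0391 and 0.0103). Whether they share anything beyond the number is not given by the labels, and these correlations cannot settle it. With the replicate number as a block, 30 transcripts and 0 gene sums were called (5018 sums at an unadjusted limma p under 0.05). The ptprz make-up was called in that fit (diffSplice adjusted p = 0.0220). That call again rested on ptprz i3, which passed the filter through the DMSO limbs alone. The test made more false calls than its nominal rate on simulated data. Depth is unknown from TPM, so the counting error of low members such as lrp1, ptprz i3 and nucleolin i7 could not be measured.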

Other observations

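Among 1262 named gene sums, those that varied most like each member over the 6 limbs were found by the Pearson r of log2(sum + 0.5). These are descriptions over 6 limbs that share a treatment split and, for some, the high values of DMSO 2. For midkine they were named after NRP2 (neuropilin-2, a co-receptor of semaphorins and VEGF, r = 0.978), TT39A (0.975) and LMA2L (0.973). NRP2 was at 12.8, 25.9 and 10.7 scaled TPM in DMSO and at 17.7, 22.7 and 19.96 in iMDK. It was highest in DMSO 2 and next in iMDK 2, as midkine was. Being picked for its likeness to midkine, NRP2 shares the order of limbs by that choice. For ptprz they were SHRM1 (0.988), TLR7 (0.985) and TREX2 (0.982). For lrp1 they were NCOR1 (0.978), SFSWA (0.968) and S4A11 (0.963), and for notch2 ZC3H4 (0.979), the semaphorin SEM6A (0.977) and AF17 (0.970).

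For nucleolin they included ACY3 (an aminoacylase, r = 0.989) and IPO7 (a nuclear import receptor, 0.979). ACY3 was at 208, 163 and 141 scaled TPM in DMSO and at 59.4, 30.7 and 31.3 in iMDK. IPO7 was at 99.3, 84.6 and 85.1 in DMSO and at 78.1, 61.7 and 60.8 in iMDK. Genes picked for their likeness to nucleolin share its order of limbs by that choice.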
